A study of Rattus norvegicus with 6 samples.

Results

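Genes of the extracellular matrix and of fibrosis were examined in kidney cortex after dosing with anthraquinone, a quinone with a fused tricyclic core. The 10 genes were Col1a1, Col1a2, Col3a1, Col4a1, Col4a2, Fn1, Tgfb1, Timp1, Vim and Acta2, chosen by name. Probes were assigned to a gene where their accession belonged to its symbol in the RefSeq table of rat assembly GRCr8. This gave 17 probes for 9 of the 10 genes, among 32663 gene entries tested. Col4a2 had no probe matched to it and was not analysed here. Dosed animals were 3 male Sprague-Dawley (Crl:CD(SD)) rats, which received 1000 mg/kg/day of anthraquinone over 4 weeks. The controls were 3 male rats of the same strain given corn oil for 4 weeks. All animals were 5 weeks old at purchase and ate a basal diet, and each was hybridised to its own 1-colour Agilent array.

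Matrix builds up in a scarred kidney when activated interstitial cells, the myofibroblasts, secrete fibrillar collagens and fibronectin. The growth factor TGF-beta drives that programme through SMAD proteins. Matrix metalloproteinases degrade the deposit and tissue inhibitors hold those enzymes back. Healthy cortex also holds matrix, in the basement membranes of tubules and glomeruli, where the network-forming collagen IV is the main collagen.

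The members were tested on a normalized log2 scale, which is the log2 spot intensity minus the log2 of the 75th percentile of that array. A value of 0 on this scale is therefore the 75th percentile of the array, and values are compared between arrays for 1 probe, not between probes. Where a gene had several probes, values are those of the brightest unless another is named. Differences are anthraquinone minus corn oil, with an SE and a 95% interval from limma.

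None of the 9 measured members passed the test over all genes in limma at an adjusted p of 0.05, 0 in either direction, against a background of 0.0276% of all entries (9 of 32663), 0.0153% higher and 0.0122% lower. At an unadjusted p under 0.05, 1 of the 9 members differed, fibronectin (Fn1), which was lower, where 17.1% of all entries did (9.47% higher and 7.65% lower). The groups did not overlap for 1 of the 9 members, again Fn1, where 25.2% of all entries did not overlap (10.2% lower with anthraquinone). The median difference of the members was -0.03 on the log2 scale, and that of all entries was 0.007. Of the members 3 had a difference above 0 and 6 below 0. At probe level 0 of the 17 probes passed, where 0.0339% of 41310 probes did. Every member probe was well above background on all 6 arrays and none was saturated.

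**Figure D1:**
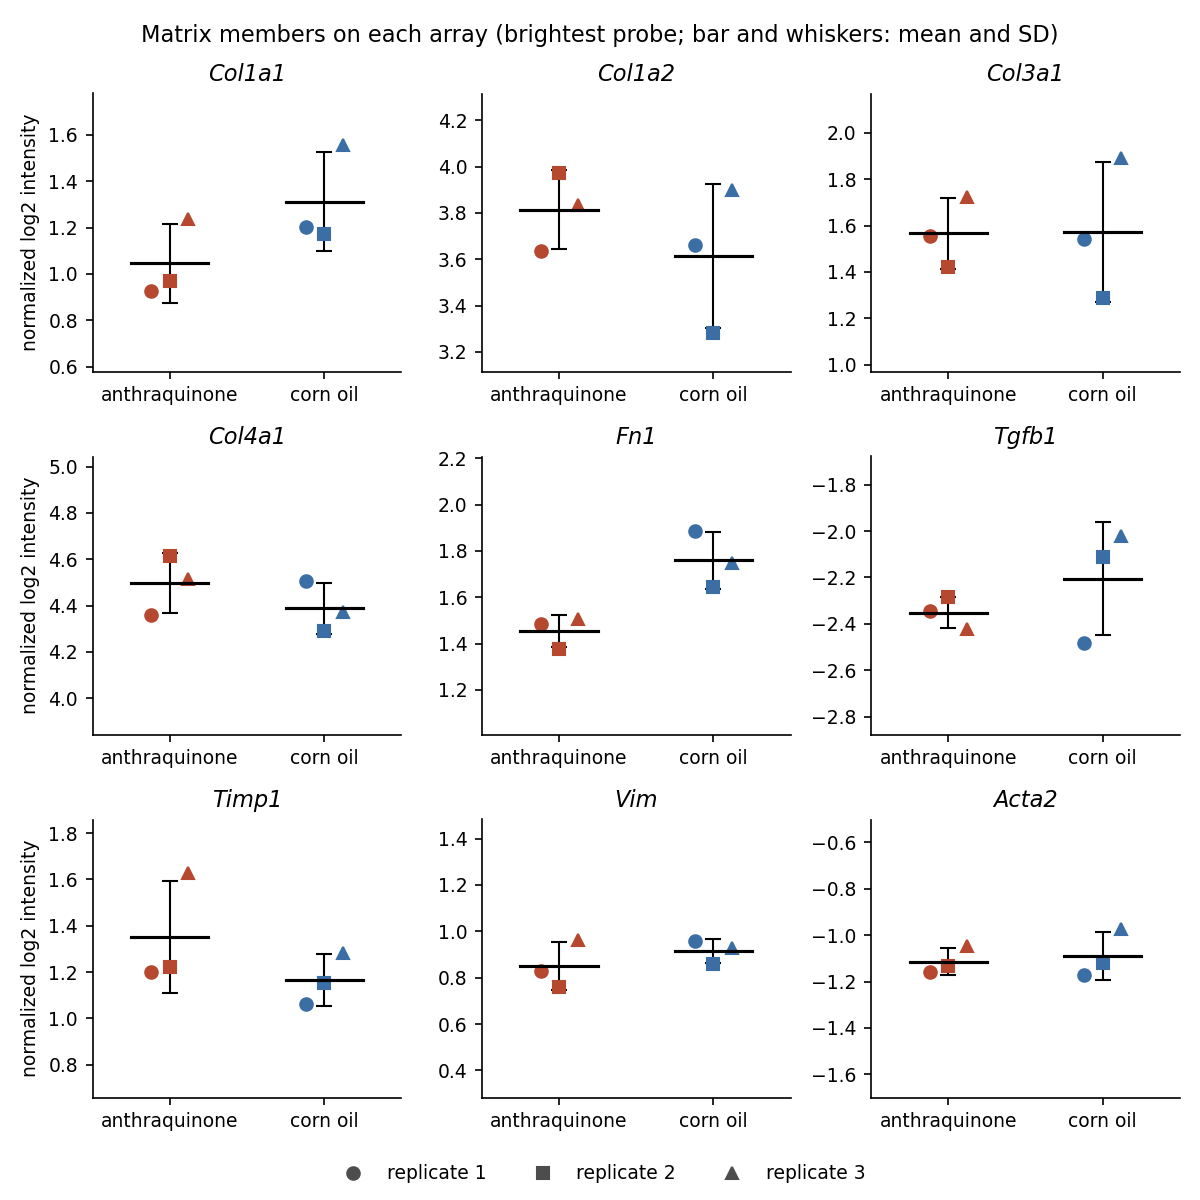
Normalized log2 intensity of the brightest probe of each measured member on the 3 anthraquinone and the 3 corn oil arrays. Each panel spans the same log2 range, points are single animals, and bars and whiskers are the mean and SD. Fn1 is the panel in which the 3 anthraquinone values all lie below the 3 corn oil values.

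Arrays differed in slide, position, intensity and share of probes above background. The anthraquinone arrays and corn oil replicates 2 and 3 were on the same slide, whereas corn oil replicate 1 was the only array on its own. On the shared slide the anthraquinone arrays occupied row 2 and the controls row 1, so that row and treatment cannot be told apart there. The 75th percentile of the intensity was 844 to 880 on anthraquinone arrays and 903 to 1191 on corn oil arrays. Probes well above background made up 64.2 to 66.1% with anthraquinone and 68.7 to 70.7% with corn oil. Neither the intensity nor this share overlapped between the groups. For the label renal cortex, all 14 proximal tubule markers were above background on every array, as were all 9 collecting duct and medulla markers. Detection alone therefore cannot tell cortex from other parts of the kidney. Red cell markers, of which Slc4a1 was also in the collecting duct and medulla list, moved with the groups. All 5 that were tested (Hbb-bs, Alas2, Hbb, Hba-a1 and Slc4a1) had higher values on every anthraquinone array, where 25.2% of all entries did not overlap in either direction. Their summed linear level was 848 to 1143 with anthraquinone and 545 to 699 with corn oil. In limma 0 passed over all genes and 5 had an unadjusted p under 0.05, where 17.1% of all entries did. The part of these differences in the results was not tested.

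Sequence next to the starts of the collagen genes is shown for 2 members, because one window bears on the unmeasured Col4a2. RefSeq promoter windows (GRCr8) were matched for 7 of the 10 members. Col4a1 and Col4a2, which encode the main chains of collagen IV, start head to head, and 76 bases lie between their annotated starts. The stretch between them is printed on the strand of Col4a1 (chr16:84885521-84885596). The Col1a2 stretch runs from 250 to 151 bases before its annotated start (chr4:33518307-33518406, plus strand). Capitals mark matches to GGGCGG (the GC box), to CCAAT (the CCAAT box) or to TATAAA (the TATA box). Both strands were searched, and no match overlapped another.
Col4a1: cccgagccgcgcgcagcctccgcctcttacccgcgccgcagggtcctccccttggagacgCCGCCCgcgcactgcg
Col1a2: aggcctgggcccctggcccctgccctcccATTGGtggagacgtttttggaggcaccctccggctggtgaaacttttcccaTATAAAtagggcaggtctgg
The collagen IV stretch holds GGGCGG on the opposite strand. Of 33469 RefSeq windows cut at the same distances from a start, 18.1% hold it on either strand. The Col1a2 stretch holds CCAAT on the opposite strand and TATAAA on its own strand. On either strand, 14.5% and 5.43% of the windows hold them. A match is a description of the letters. Although the pair shares this stretch, the values of Col4a1 below do not stand in for those of Col4a2.

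Col1a1 and Col1a2 encode the chains of collagen I, the main fibrillar collagen of scar tissue. Col1a1 had normalized log2 values of 0.93, 0.97 and 1.24 in the anthraquinone animals, against 1.20, 1.17 and 1.56 in the corn oil animals. The groups overlapped, because anthraquinone replicate 3 lay above 2 of the controls. The difference was -0.27 ± 0.14 (SE, 95% interval -0.61 to 0.08, limma adjusted p = 0.385). The other Col1a1 probes also had differences below 0. That of A_64_P040278 was -0.26 and that of A_44_P350521 was -0.15, with overlapping groups on both. Corn oil replicate 3 was the highest array on all 3 Col1a1 probes. Without it the brightest probe had a difference of -0.14, A_64_P040278 one of -0.035 and A_44_P350521 one of -0.016. Within the shared slide the brightest probe had a difference of -0.32 (limma adjusted p = 0.421). In tissue samples such as these, a different number of cells and a different amount of RNA per cell cannot be told apart.

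Col1a2 had normalized log2 values of 3.63, 3.97 and 3.84 in the anthraquinone animals, against 3.66, 3.28 and 3.90 in the corn oil animals. Corn oil replicate 2 was the lowest array, and the other 2 controls lay within the range of the anthraquinone values. The difference was 0.20 ± 0.18 (SE, 95% interval -0.23 to 0.63, limma adjusted p = 0.599), and it was 0.03 when that array was left out and 0.34 when the third control was. Its second probe, A_44_P458851, had a difference of 0.05, and the same control was the lowest array on it.

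Col3a1 encodes collagen III, a fibrillar collagen laid down with collagen I. Its normalized log2 values were 1.55, 1.42 and 1.72 with anthraquinone, against 1.54, 1.29 and 1.89 with corn oil. The anthraquinone values lay inside the range of the controls. The difference was -0.01 ± 0.17 (SE, 95% interval -0.42 to 0.41, limma adjusted p = 0.990). Leaving out single arrays turned its sign, with -0.15 when the second control was left out and 0.15 when the third was.

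Within the control group the 3 fibrillar collagen members were all high on corn oil replicate 3, whereas only Col1a2 and Col3a1 were low on corn oil replicate 2. Corn oil replicate 3 was 0.38, 0.18 and 0.32 above the 6-array mean for Col1a1, Col1a2 and Col3a1. Corn oil replicate 2 was 0.43 and 0.28 below it for Col1a2 and Col3a1, and 0.01 below it for Col1a1. The within-group SDs of Col3a1 were 0.15 with anthraquinone and 0.30 with corn oil, and those of Col1a2 were 0.17 with anthraquinone and 0.31 with corn oil (n = 3 each). The corn oil SD was larger than the difference between the group means for both genes.

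**Figure D2:**
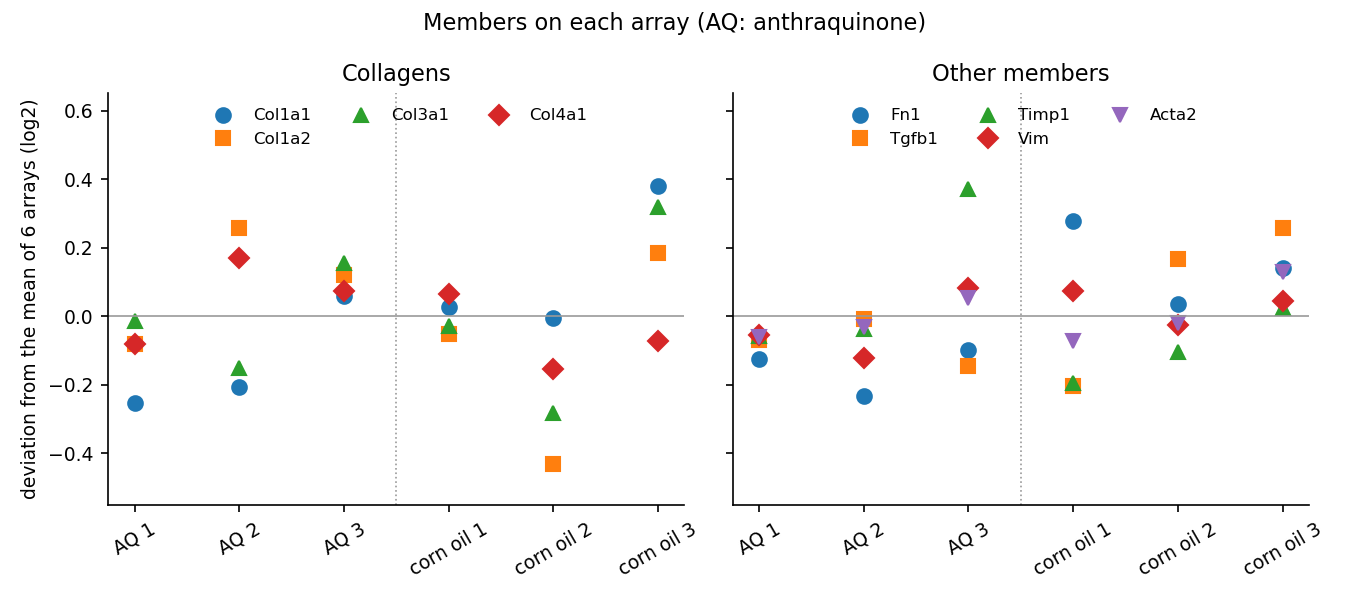
Deviation of each member from its own mean over the 6 arrays, in log2 units, with collagens on the left and the other members on the right. Col1a1, Col1a2 and Col3a1 lie together above the line on corn oil replicate 3, and Fn1 lies below the line on the 3 anthraquinone arrays.

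The mean centred profile of these fibrillar collagens was compared with those of 11819 other named genes over the 6 arrays. The closest were Cabp4, Pdxk, Mmp14, Gpr4 and Or11m3, whose root-mean-square differences were 0.04 to 0.07 on the log2 scale, against a median of 0.22 over all genes. Mmp14 encodes a membrane-bound collagenase, and its own difference between the groups was -0.03 ± 0.14 (SE, limma adjusted p = 0.935). For Col4a1 the closest were Gtf2ird1, Amotl2, Hmgb2, Dlg2 and Bpnt1, at 0.03 to 0.04, and 999 genes lay within 0.1 of it. With 6 arrays many genes come this close, and the likeness is a description of these arrays.

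Col4a1 encodes a chain of the basement membrane collagen. Its brightest probe had normalized log2 values of 4.36, 4.61 and 4.52 with anthraquinone, against 4.51, 4.29 and 4.37 with corn oil. The groups overlapped, and the difference was 0.11 ± 0.10 (SE, 95% interval -0.14 to 0.35, limma adjusted p = 0.618). Leaving out anthraquinone replicate 1 or 2 gave 0.18 or 0.050, and leaving out corn oil replicate 1 or 2 gave 0.17 or 0.058. Quantile normalization gave 0.0097. The other 3 probes had differences of -0.07, 0.11 and 0.003, none past the test. Probe A_44_P1070510 ordered the animals differently from the brightest one, with anthraquinone replicate 1 highest at 3.75 and anthraquinone replicate 3 lowest at 3.24. Across all 4 probes the 95% intervals ran from -0.48 at the lowest to 0.36 at the highest.

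Fn1 encodes fibronectin, an adhesive glycoprotein of matrix and plasma. Its brightest probe had normalized log2 values of 1.48, 1.38 and 1.51 in the anthraquinone animals, against 1.89, 1.64 and 1.75 in the corn oil animals. All 3 anthraquinone values lay below all 3 controls. The difference was -0.30 ± 0.09 (SE, 95% interval -0.52 to -0.08), a 1.23-fold lower mean, with an unadjusted limma p of 0.0149 and a limma adjusted p of 0.216 over all genes. In size it lay at percentile 81.3 of the absolute differences of all entries.

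The other Fn1 probes ordered the groups in the same way. Probe A_44_P210568 had values of 0.59, 0.53 and 0.59 with anthraquinone, against 0.96, 0.81 and 1.03 with corn oil. Its difference was -0.37 ± 0.08 (SE, limma adjusted p = 0.183 over all probes). The dim probe A_64_P077570 had values of -4.64, -4.82 and -5.06 with anthraquinone, against -4.09, -4.53 and -4.38 with corn oil. Its difference was -0.51 ± 0.15 (SE, limma adjusted p = 0.213 over all probes), and -0.18 with normexp on median spot signals followed by quantile normalization. The groups did not overlap on any of the 3 Fn1 probes, as for 25.2% of all 41310 probes in either direction. The probes read the same 6 RNA samples and are not independent of each other.

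Fn1 kept a difference below 0 under all 20 settings, from -0.51 with the probe of largest spread to -0.24 within the shared slide. Its limma adjusted p ranged from 0.119 to 0.403. Corn oil replicate 1, alone on its slide, was the highest control on the brightest probe. Without the filter on dim probes, the second probe passed (-0.37, limma adjusted p = 0.0472), which was 1 of the 17 member probes. Under that setting 6611 gene entries passed, against 9 with the filter. The share of all probes that passed without the filter was not computed.

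**Figure D3:**
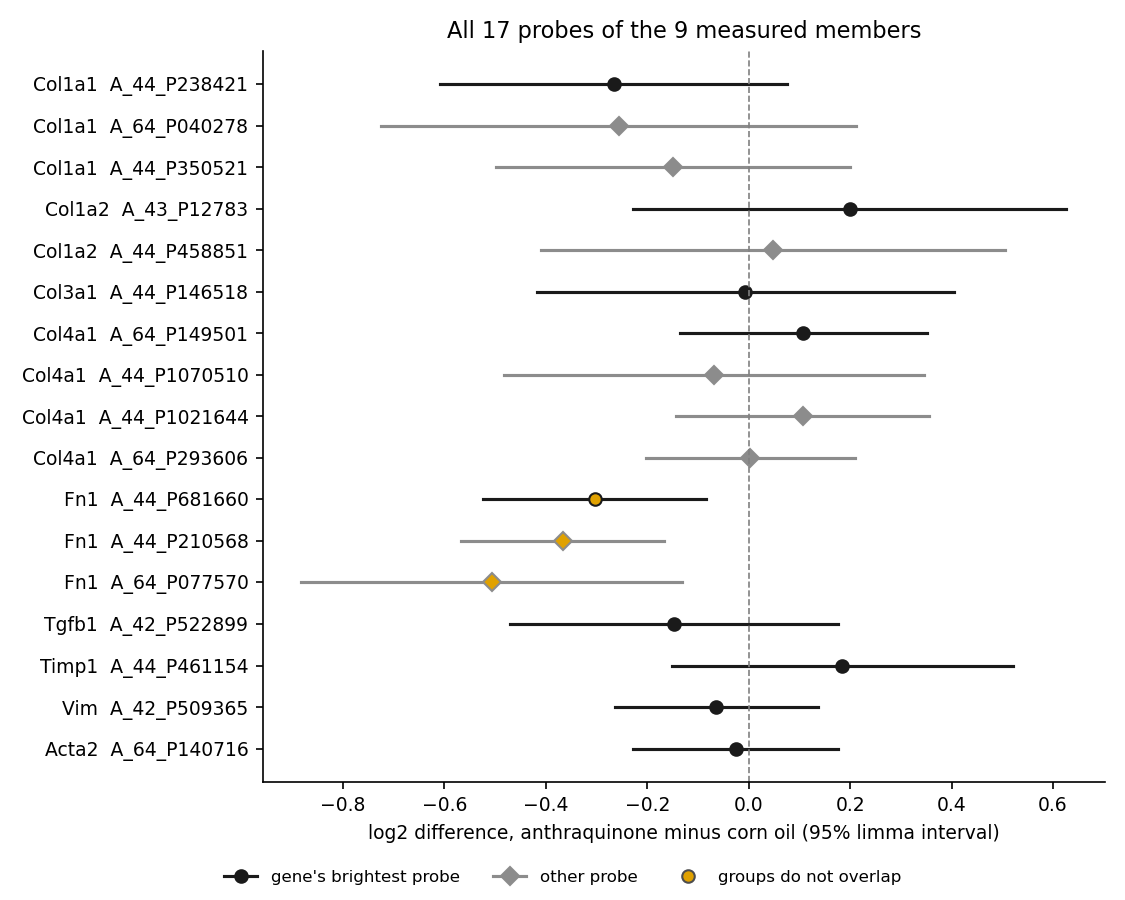
Log2 difference (anthraquinone minus corn oil) with its 95% limma interval for all 17 probes of the 9 measured members. The 3 Fn1 probes, at -0.30, -0.37 and -0.51, are the ones whose groups do not overlap.

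Tgfb1 encodes TGF-beta 1, the ligand of the fibrotic programme. Its normalized log2 values were -2.35, -2.29 and -2.42 with anthraquinone, against -2.48, -2.11 and -2.02 with corn oil. The anthraquinone values lay close together, and corn oil replicate 1 was the lowest of all 6. The difference was -0.15 ± 0.13 (SE, 95% interval -0.47 to 0.18, limma adjusted p = 0.609). Within the shared slide, which leaves out corn oil replicate 1, it was -0.29 ± 0.09 (SE, limma adjusted p = 0.334), and without corn oil replicate 3 it was -0.05.

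Timp1 encodes a secreted inhibitor of matrix metalloproteinases. Its normalized log2 values were 1.20, 1.22 and 1.63 with anthraquinone, against 1.06, 1.15 and 1.28 with corn oil. Anthraquinone replicate 3 stood above the rest, and the other anthraquinone values lay inside the control range. The difference was 0.18 ± 0.14 (SE, 95% interval -0.15 to 0.52, limma adjusted p = 0.533), and 0.04 without that array.

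Vim encodes vimentin, the intermediate filament of mesenchymal cells and of regenerating tubule cells, and Acta2 encodes the smooth muscle actin that marks myofibroblasts and vessel walls. Vim had normalized log2 values of 0.83, 0.76 and 0.96 with anthraquinone, against 0.96, 0.86 and 0.93 with corn oil. The difference of Vim was -0.06 ± 0.08 (SE, 95% interval -0.26 to 0.14, limma adjusted p = 0.731), -0.12 without anthraquinone replicate 3 and -0.019 without anthraquinone replicate 2. Acta2 had values of -1.16, -1.13 and -1.05 with anthraquinone, against -1.17, -1.12 and -0.97 with corn oil. The difference of Acta2 was -0.03 ± 0.08 (SE, 95% interval -0.23 to 0.18, limma adjusted p = 0.905). The groups overlapped for both genes, and their intervals were the narrowest of the members.

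Markers of the cells that make matrix were set beside these values. Of the interstitial fibroblast and pericyte markers, which include Col1a1, Col1a2 and Col3a1, 13 of 15 were tested and 0 passed in limma. At an unadjusted limma p under 0.05, 2 differed (15.4%, where 17.1% of all entries did), Pdgfrb at 0.36 and Pi16 at -0.31. Only Pi16 had groups without overlap (7.69%, beside 25.2% of all entries), and the median difference of these fibroblast and pericyte markers was 0.11. The summed linear level of the list was 41.8 to 47.8 with anthraquinone and 37.5 to 53.5 with corn oil. Of the vascular smooth muscle and mesangium markers 10 of 12 were tested and 0 passed, with 2 (20%) at an unadjusted p under 0.05. Gata3, at -0.46, and Notch3, at 0.17, were the vascular and mesangial markers without overlap (20% of those tested, beside 25.2% of all entries). The summed level of this list was 63.4 to 72.3 with anthraquinone and 66.6 to 77.9 with corn oil. The ranges of the summed levels overlapped between the groups for both lists. The macrophage markers summed to 102 to 115 with anthraquinone and 113 to 128 with corn oil. Again 0 of 12 passed, with 2 (16.7%) at an unadjusted p under 0.05. The complement genes C1qa, C1qb and C1qc had differences of 0.39, 0.31 and 0.32 and Csf1r, a growth factor receptor gene, one of -0.23. These were the macrophage markers without overlap (33.3% of the 12, beside 25.2% of all entries). Lyz2, the lysozyme gene, had the highest values of the macrophage markers and made up most of their summed level. Its difference was -0.28 with overlapping groups. The part of these cells in the results was not tested.

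Other matrix genes were described from 15 lists that hold 312 genes besides the members, of which 217 were tested. None of the 217 passed over all genes in limma, and 31 had an unadjusted p under 0.05, 15 higher and 16 lower with anthraquinone (14.3%, where 17.1% of all entries did). Groups did not overlap for 41, 18 higher and 23 lower, which is 18.9% beside 25.2% of all entries. Their median difference was 0.003 on the log2 scale, beside 0.007 over all entries. The genes named below are those with the largest differences in each list among genes above background on all arrays and without overlap, and none of them passed over all genes.

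The collagen lists hold members as well as other genes. Of 7 fibrillar collagen genes tested, members included, 0 had groups without overlap, and the list median was -0.01, with a range from -0.27 for Col11a2 to 0.20 for Col1a2. Among network collagens 3 of 9 genes were tested, Col4a1 included, with a median of -0.12 and 0 without overlap. Among beaded, fibril-associated and other collagens 7 of 23 were tested, with a median of 0.003. Col14a1, a fibril-associated collagen, had a difference of 0.19 ± 0.07 (SE, limma adjusted p = 0.248), but its second probe gave -0.55, so its direction was not settled.

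Basement membrane genes outside the collagens had a median of -0.07 over 9 of 15 genes tested, 0 of them past the test. Groups did not overlap for 3, all lower (33.3%, beside 25.2% of all entries in either direction and 10.2% lower). Nid2, which encodes the laminin-binding nidogen 2, had values of 1.29, 1.17 and 1.22 with anthraquinone, against 1.58, 1.51 and 1.49 with corn oil. Its difference was -0.30 ± 0.07 (SE, limma adjusted p = 0.191). Agrn, which encodes the heparan sulfate proteoglycan agrin, had a difference of -0.23 ± 0.09 (SE, limma adjusted p = 0.283), and the groups did not overlap on any of its 3 probes.

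Matrix glycoproteins and matricellular genes held the matricellular gene with the largest difference. Ccn1, which encodes a secreted, growth factor-inducible integrin ligand, had normalized log2 values of 1.49, 1.41 and 1.57 with anthraquinone, against 0.85, 0.49 and 0.53 with corn oil. The difference was 0.87 ± 0.12 (SE, 95% interval 0.58 to 1.15), a 1.82-fold higher mean, with a limma adjusted p of 0.111. All 3 Ccn1 probes separated the groups, with differences of 0.70 to 0.87. Within the shared slide it was 0.98 ± 0.09 (SE, limma adjusted p = 0.175). Mgp, which encodes a calcification inhibitor, had a difference of 0.44 (limma adjusted p = 0.213), and Ccn4 and Emilin1 had differences of -0.29 and -0.22. Over 26 of 40 genes tested the median was 0.03.

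Genes regulated by TGF-beta family signals had a median of 0.16 over 16 of 19 tested, members included. Without overlap were 3 higher and 2 lower (31.25%, beside 25.2% of all entries). Id1 and Id3 encode inhibitors of helix-loop-helix transcription factors and are best known as targets of the BMP branch of the family. Id1 had values of 1.63, 1.75 and 1.82 with anthraquinone, against 0.83, 0.53 and 0.89 with corn oil. Its difference was 0.98 ± 0.12 (SE, 95% interval 0.69 to 1.27), a 1.97-fold higher mean, with a limma adjusted p of 0.0983. Id3 had values of 3.25, 3.50 and 3.57 with anthraquinone, against 2.75, 2.53 and 3.09 with corn oil, a difference of 0.65 ± 0.16 (SE, limma adjusted p = 0.196). All 4 Id3 probes separated the groups, with differences of 0.65 to 0.78. Pmepa1, an inhibitor of SMAD signalling that TGF-beta induces, had a difference of -0.41 (limma adjusted p = 0.265). Among classical fibrotic targets Ccn2, which encodes connective tissue growth factor, had values of 1.81, 1.97 and 1.78 with anthraquinone, against 1.19, 2.48 and 1.41 with corn oil, and was chosen for the text after these were seen. Corn oil replicate 2 was its highest array and the other controls its lowest. The difference was 0.16 ± 0.33 (SE, limma adjusted p = 0.841).

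**Figure D4:**
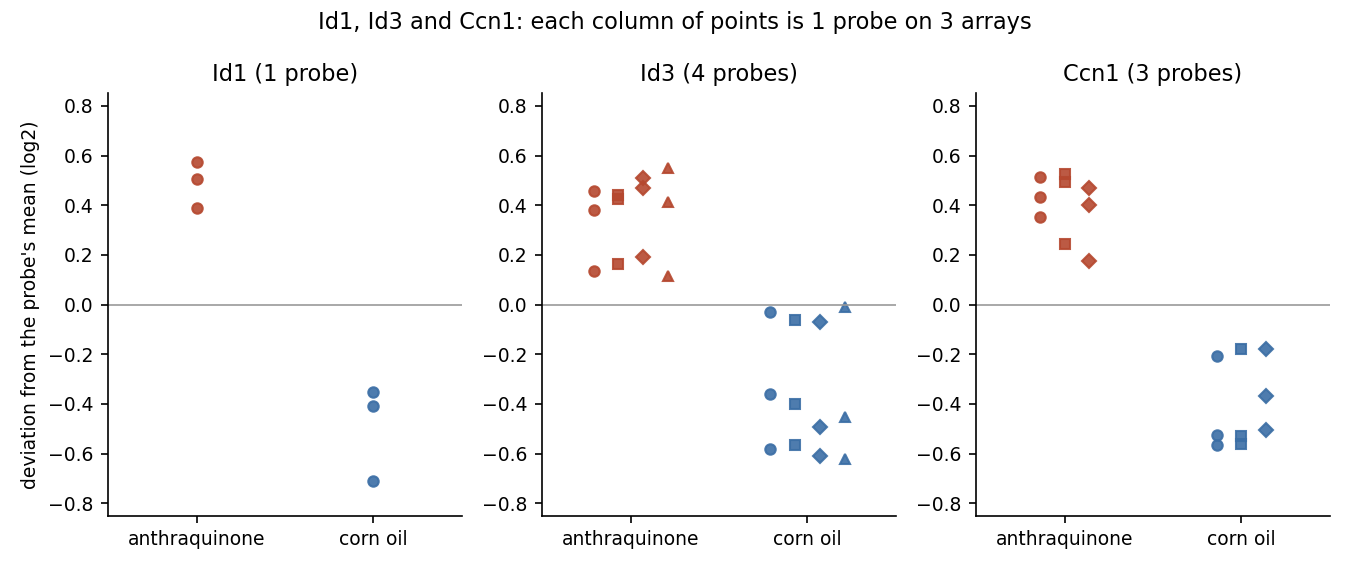
Deviation of every Id1, Id3 and Ccn1 probe from its own mean over the 6 arrays, in log2 units. Each column of points is 1 probe on 3 arrays. The anthraquinone points lie above 0 and the corn oil points below it for all 8 probes.

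Ligands, latency proteins, receptors and transducers of the TGF-beta family had a median of -0.03 over 38 of 44 tested, 0 past the test. Without overlap were 2 higher and 3 lower (13.2%, beside 25.2% of all entries). Bmp7, which encodes a BMP ligand made by kidney epithelium that opposes TGF-beta 1, had values of 4.50, 4.56 and 4.67 with anthraquinone, against 4.23, 4.20 and 4.22 with corn oil. Its difference was 0.36 ± 0.07 (SE, limma adjusted p = 0.182), and both of its probes separated the groups. Inhbb, an activin subunit gene, had a difference of 0.41 on its brightest probe, but its other probes gave -1.30, also without overlap, and 0.02, so its direction was not settled. Smurf1 and Smad2 had differences of -0.23 and -0.20, and the other probes of Smurf1 gave -0.01 and 0.04. The difference farthest from 0 in this list was that of Tgfb2, -1.69 ± 0.57 (SE, limma adjusted p = 0.237), singled out after its value was seen, with overlapping groups.

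Enzymes that make and crosslink collagen had a median of 0.07 over 23 of 31 tested, 0 past the test. The lysyl hydroxylase gene Plod1 had a difference of 0.23 ± 0.08 (SE, limma adjusted p = 0.241) and Plod3, another lysyl hydroxylase gene, one of -0.31 ± 0.11 (SE, limma adjusted p = 0.262). The peptidyl-prolyl isomerase gene Ppib had a difference of 0.13, which was 0.019 with normexp and quantile normalization, and the transglutaminase gene Tgm2 one of -0.33. Proteoglycan and hyaluronan synthase genes had a median of 0.03 over 18 of 25 tested, and Vcan and Sdc1 had differences of -0.32 and -0.19.

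Matrix proteases ranged from -1.15 to 0.95, with a median of -0.01 over 27 of 39 tested, 0 past the test. Mep1b, which encodes the beta subunit of the brush border protease meprin, had values of 4.21, 3.47 and 3.97 with anthraquinone, against 5.39, 5.39 and 4.30 with corn oil. Its difference was -1.15 ± 0.35 (SE, limma adjusted p = 0.216), and -1.19 on a second probe. Mmp12, the macrophage elastase gene, had a difference of 0.95 ± 0.31 (SE, limma adjusted p = 0.232), and Mmp9, a gelatinase gene, one of -0.76 ± 0.31 (SE, limma adjusted p = 0.287). With normexp and quantile normalization these were 0.41 for Mmp12 and -0.38 for Mmp9. Ctsl, a lysosomal protease gene, had a difference of 0.33, and 0.13 after quantile normalization. Among protease inhibitors the median was 0.11 over 9 of 11 tested, Timp1 included, and Cst3, the cystatin C gene, had a difference of 0.20, and 0.023 with normexp and quantile normalization.

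Contractile and myofibroblast genes had a median of -0.03 over 18 of 23 tested, and 1 had groups without overlap (5.56%, beside 25.2% of all entries). It was the tropomyosin gene Tpm1 at -0.16 ± 0.07 (SE, limma adjusted p = 0.320). Intermediate filament genes had a median of -0.06 over 13 of 15 tested, 0 past the test. The simple epithelial keratin gene Krt8 had a difference of 0.33, the synemin gene Synm 0.27 and the ductal keratin gene Krt19 -0.72. None of the 15 matrix receptor genes tested of 24 had groups without overlap, and their median was -0.02. Epithelial junction and transition genes had a median of 0.006 over 11 of 13 tested, with Tjp1 at -0.18 and Epcam at -0.15. Of the 31 genes named by rule outside the members, 19 had several probes. For 10 of these 19 every probe separated the groups in the same direction. The brightest probe of each gene did so by the naming rule, and the probes read the same 6 RNA samples. The share over all genes with several probes was not computed. Only the brightest probe separated the groups for Tjp1 (of 6), Tpm1 (of 5), Vcan (of 3), Nid2 and Pmepa1 (of 2 each), and 2 of 4 did for Emilin1. Of the 19 genes 3, Col14a1, Inhbb and Smurf1, had probes of opposite sign.

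**Figure D5:**
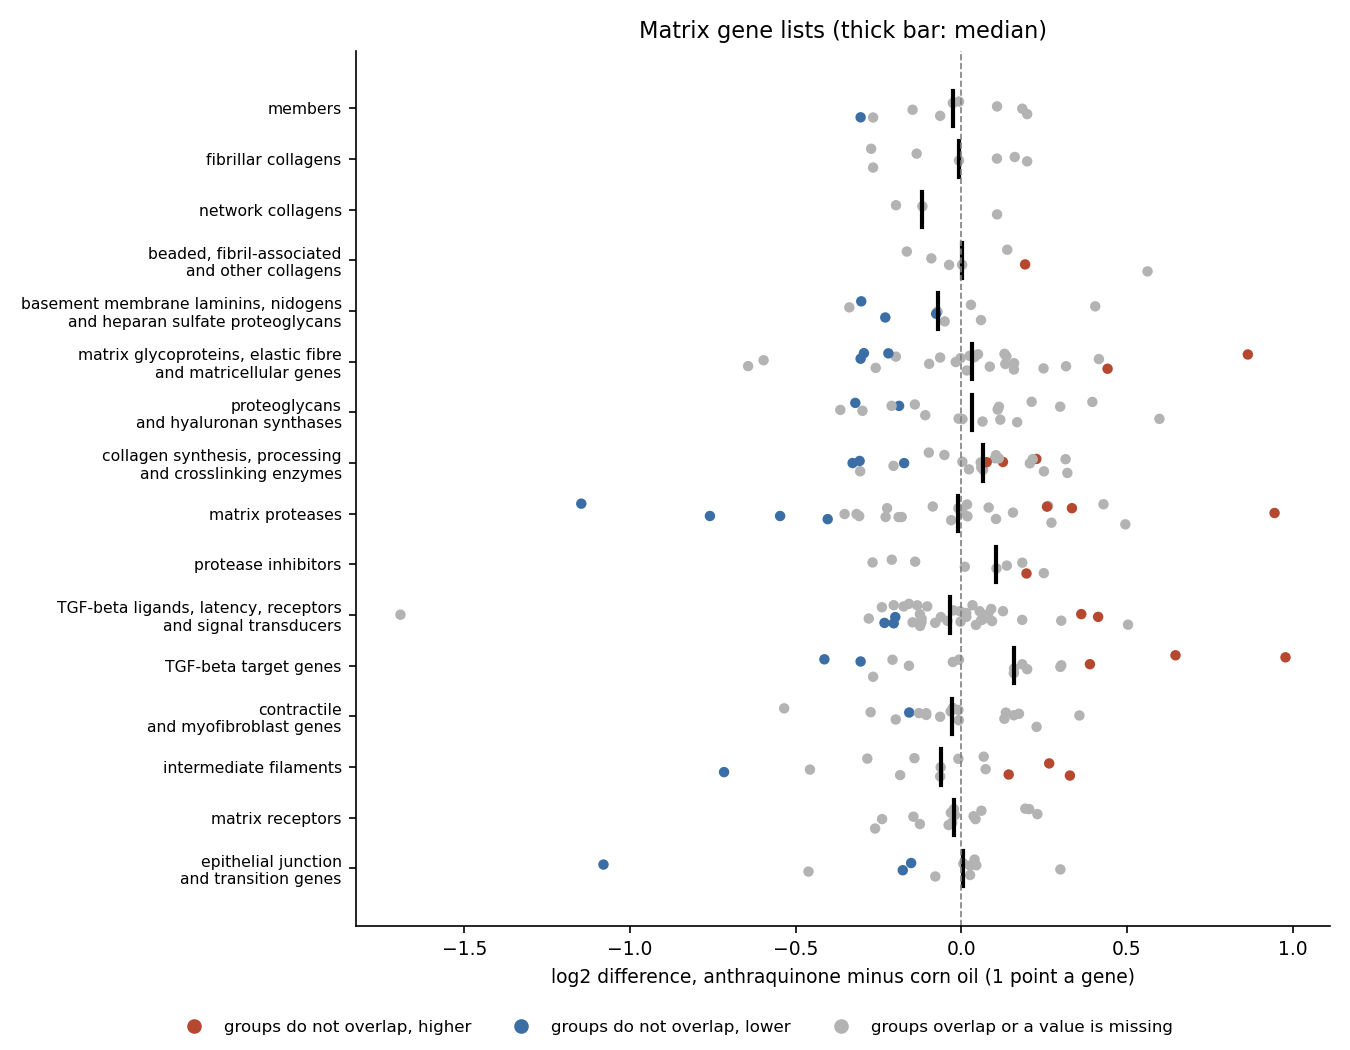
Log2 difference (anthraquinone minus corn oil) of every tested gene in the member list and the 15 matrix lists, 1 point a gene, with a thick bar at each median. The medians lie between -0.12 and 0.16, and red and blue points are genes whose groups do not overlap, higher and lower with anthraquinone.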

How the data were processed

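Spot intensity on a linear scale was deposited by the authors as Agilent Feature Extraction output, version 10.7.1.1 per the file headers, already corrected for background and spatial trend and not scaled between arrays. From it the log2 intensity minus the log2 75th percentile of each array was computed, over 61657 non-control probes. Outlier spots, 2 to 13 an array, were dropped. Probes entered the test when every array of either group called them well above background (41310 probes). RefSeq accessions named 27460 probes, and unnamed probes stood for themselves. Groups, from the sample titles, were compared in limma 3.58.1 (R 4.3.3) with Benjamini-Hochberg adjustment over all 32663 entries. The design text calls the replicates biological, and 3 arrays a group limit the precision. Members, lists and the naming rule were chosen with earlier results of these data known. The rule names all members, the 2 genes per direction and matrix list with the largest differences among those above background on all 6 arrays whose groups do not overlap, marker genes without overlap, and the 5 genes of nearest profile. The fit was tested on simulated data, in which it recovered 22, 62, 88 and 94% of changes of 0.5, 1, 2 and 3 log2 (50 each). The members' differences, -0.30 to 0.20, were smaller than any change simulated, so changes of their size could go uncalled. Same-numbered animals did not deviate together (correlations 0.03, -0.06 and -0.01 across genes). Scaling, background, filter, probe choice, variance model, blocks, the deposited value table (90.7 to 97.0% of its values an array within 0.01 log2 of the intensity divided by 1 constant) and each array left out were varied, and the probe-level repeats were added after seeing the data.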

Additional observations from a re-analysis of the deposited data

How the results depend on the processing

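No member gene passed under any of the 20 settings, and in the 18 settings run on probes 0 of the 17 member probes did, except 1 without the filter on dim probes. The count over all entries moved most. It was 9 (5 higher) as reported, 6611 without the filter (6053 higher), 81 with a trended and robust variance (47 higher), 17 with normexp (offset 50) on median spot signals and quantile normalization together (8 higher), 2 with the slide as a block, 1 with the replicate block, and 1 to 32 with 1 array left out. The 32 came without corn oil replicate 3 (7 higher), the 1 without anthraquinone replicate 2, and 2 and 5 without corn oil replicates 1 and 2. The causes were not tested. Other matrix genes past the threshold numbered 12 without the filter and 2 with the trended variance, where Id1 (limma adjusted p = 0.0278) and Ccn1 (0.0393) passed. Without the filter Id1 and Ccn1 (both 0.0199) and Bmp7 (0.0362) passed. Signs near 0 turned. Acta2 was 0.0033 and Col3a1 0.022 with median scaling, which moved the median of all entries to 0.036, Col3a1 was 0.043 with array weights, and Col4a1 was -0.0029 with normexp and quantile normalization together (0.0097 with quantile alone) and -0.069 with the probe of largest spread. That probe choice gave -0.55 for Col14a1 and -1.30 for Inhbb, and the mean of probes -0.18 and -0.29. With 1 array left out, Acta2 ranged from -0.067 to 0.032, Col3a1 from -0.15 to 0.15, the second Col1a2 probe from -0.13 to 0.23, and Col4a1 probes A_44_P1070510 from -0.22 to 0.033 and A_64_P293606 from -0.048 to 0.048. The replicate block changed no call among the members. The 3 arrays a group limit the precision.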

Other observations

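Ratios between members on the same array do not depend on scaling by 1 constant an array, though quantile and loess normalization can change them. These values were looked at after the members' own values were seen. Over all 36 pairs of measured members the differences ran from -0.49 to 0.50. The groups did not overlap for 11 of the 36, of which 7 were lower with anthraquinone. Among the 11 were the pairs of Fn1 with Col1a2, Col4a1, Timp1, Vim and Acta2, and Fn1 alone already separated the groups. No share over pairs of all genes or probes was computed, so the pair counts here and below have no background beside them. Pairs share genes and are not independent, and 18 of the 36 differences were below 0. The difference farthest from 0 was that of Col1a2 to Fn1, 0.50, and that of Col4a1 to Fn1 was 0.41, both higher without overlap. The gene pairs printed below are those with the differences farthest below 0. The log2 ratio of the brightest Col1a1 probe to the brightest Col1a2 probe was -2.71, -3.00 and -2.60 with anthraquinone, against -2.46, -2.11 and -2.34 with corn oil. The difference of the means was -0.47, and the groups did not overlap. Over all 6 pairings of Col1a1 and Col1a2 probes the difference was below 0, from -0.47 to -0.20, and the groups did not overlap for 2 of the 6. The log2 ratio of Fn1 to Timp1 was 0.28, 0.15 and -0.12 with anthraquinone, against 0.82, 0.49 and 0.47 with corn oil.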
